A study of Mus musculus with 2 samples.

Results

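The MYC and MAX network is a family of transcription factors that pair with each other to bind DNA. Its 9 members described here, Myc, Mycn, Mycl, Max, Mxd1, Mxd4, Mxi1, Mnt and Mlx, were chosen by name, and all 9 were found among the 35275 Ensembl gene identifiers of a table of read counts. The counts come from polyadenylated RNA of mesenchymal stem/progenitor cells (MSPC) of mouse bone marrow, a stromal population able to give rise to osteoblasts, chondrocytes and adipocytes. One library was made from Ptpn11E76K/+ mice and one from Ptpn11+/+ mice, all of strain C57BL/6 and all carrying Nestin-Cre, a Cre transgene driven by the promoter of the nestin gene. Ptpn11 is the gene of the phosphatase SHP2, a positive regulator of the RAS-ERK cascade, and the E76K substitution makes SHP2 constitutively active. The cells were sorted without culture by the presence of CD140 and Sca-1 and the absence of CD45, Ter-119 and CD31, and the sources used here give no age for the mice. The design text names 2 replicates, but 1 column per genotype was analysed here, and the labels do not say whether a column pools animals. There are no replicates, so no test between genotypes was possible, no p-value is given and each difference is one between 2 libraries.

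MYC, MYCN and MYCL bind DNA as dimers with MAX, at a sequence called the E-box (CACGTG), and promote genes for ribosome production, metabolism and cell division. MXD1, MXD4, MXI1 and MNT also pair with MAX, bind the same sequence and recruit SIN3 co-repressors, so that they compete with MYC. Genes of the MXD group are known to be expressed as cells leave the cell cycle and differentiate. MLX is a MAX-like protein that pairs with some MXD proteins, with MNT and with the glucose-sensing factors MLXIP and MLXIPL. ERK signalling is known to induce Myc transcription and to stabilise the MYC protein.

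Promoter sequences from RefSeq, on build GRCm38.p6, were found for 8 of the 9 members, all but Myc. Each window runs from 250 bases before to 50 bases after an annotated start of transcription, and 10 such windows belong to the 8 members. The motif CACGTG, which reads the same on both strands and is also bound by other factors such as USF and TFE3, occurred in 4 of these 10 windows, against 7.15% of all 32851 promoter windows and 9.81% of the 12794 windows of measured genes. The 4 windows were those of Max, Mlx, Mxd4 and Mnt, and their stretches around the motif are shown because these genes encode partners that bind this motif themselves. Capitals mark the E-box.
Max, chr12:76962219-76962308, minus strand: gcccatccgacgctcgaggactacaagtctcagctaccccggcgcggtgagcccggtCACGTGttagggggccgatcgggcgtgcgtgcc
Mlx, chr11:101087193-101087312, plus strand: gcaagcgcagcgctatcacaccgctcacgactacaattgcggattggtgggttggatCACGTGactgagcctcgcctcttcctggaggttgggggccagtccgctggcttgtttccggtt
Mxd4, chr5:34187841-34187960, minus strand: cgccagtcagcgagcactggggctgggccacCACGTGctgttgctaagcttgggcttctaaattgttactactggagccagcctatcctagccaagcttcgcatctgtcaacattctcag
Mnt, chr11:74830744-74830863, plus strand: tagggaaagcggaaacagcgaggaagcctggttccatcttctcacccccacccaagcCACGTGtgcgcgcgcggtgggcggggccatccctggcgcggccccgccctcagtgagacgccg
The first base of the motif lay 219 bases before the start in Mxd4, 123 before it in Mnt and 40 before it in Mlx. In Max it lay 3 bases before the start, so that the motif spans the start there. A match is a string of letters and not a measured binding site, and these sequences are not tied to the coordinates of the counted reads, for which the submitters' processing notes name build mm9.

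The Ptpn11E76K/+ library held 18010963 counts and the Ptpn11+/+ library 22328659. Levels are given in CPM, the counts divided by library totals that were scaled with TMM factors (0.965 for Ptpn11E76K/+ and 1.04 for Ptpn11+/+). Each ratio has a 95% exact Clopper-Pearson interval that covers counting error only. A gene counted as measured when both libraries together held 20 counts or more, and it was called higher or lower in the Ptpn11E76K/+ library when its whole interval lay beyond 2-fold. Of 13142 measured genes, 6.99% were called higher and 8.29% lower, 15.3% together. Higher calls made up 45.7% of all calls, or 35.5% with library totals computed without the 100 most abundant genes. The sort markers Pdgfra (1792 counts in Ptpn11E76K/+ and 2073 in Ptpn11+/+) and Ly6a, the gene of Sca-1 (612 in Ptpn11E76K/+ and 2177 in Ptpn11+/+), were present. Ly6a was called lower. Ptprc, the gene of CD45, had 12 counts in Ptpn11E76K/+ and 1 in Ptpn11+/+, and Pecam1, the gene of CD31, had 2 in Ptpn11E76K/+ and 5 in Ptpn11+/+. Of 10 genes that mark such MSPC, 9 were measured, with 2 called higher and 3 lower. That is 22.2% called higher and 33.3% lower, against 6.99% and 8.29% of all measured genes, so these markers were not alike in the 2 libraries. Of 8 lymphoid markers 7 were at 0 in both libraries, 8 erythroid markers summed to 5 counts in Ptpn11E76K/+ and 16 in Ptpn11+/+, and 8 endothelial markers summed to 28 counts in Ptpn11E76K/+ and 20 in Ptpn11+/+.

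Of the 9 members, 8 were measured: Myc was called higher (1 gene), Mycn and Mxd4 were called lower (2 genes) and 5 were not called. That is 12.5% of the 8 called higher and 25% called lower, against 6.99% and 8.29% of all measured genes, and with 8 genes each call is 12.5%. Myc was the member farthest above the control, and all 4 genes of MAX-binding antagonists (Mxd1, Mxd4, Mxi1 and Mnt) had a lower level in the Ptpn11E76K/+ library, of which 1 passed the rule. The median log2 ratio of the 8 measured members was -0.72, against 0.01 for all measured genes. No member changed direction under any other scaling, or after smooth trends over the length and GC content of transcripts were removed.

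**Figure D1:**
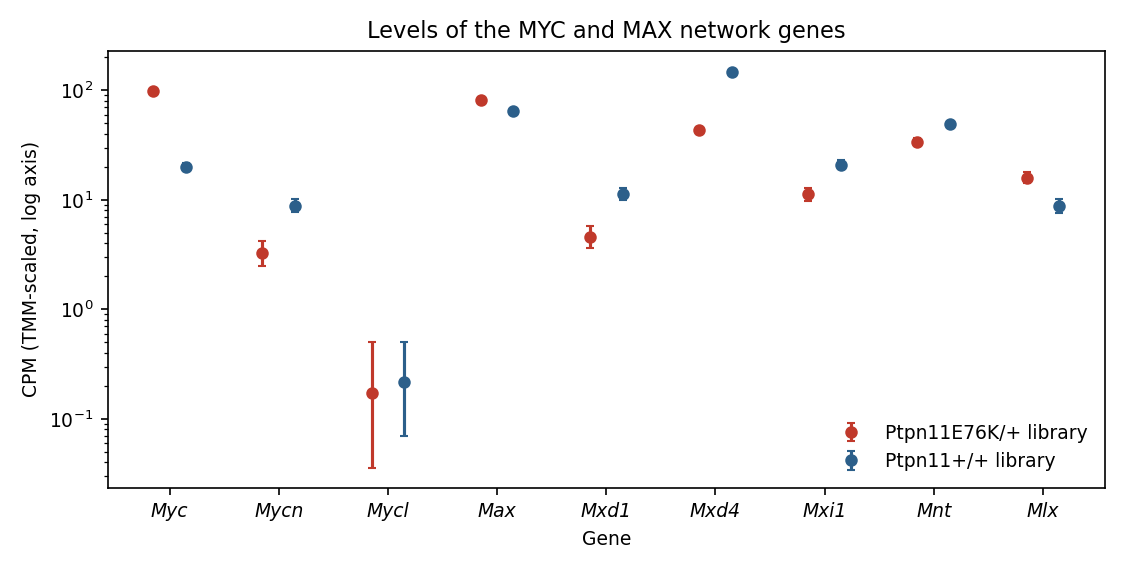
Level of each network gene in CPM on a log axis, in the Ptpn11E76K/+ library (red, left of each pair) and the Ptpn11+/+ library (blue, right), with 95% exact Poisson intervals of the counts. Myc stands at 97.9 CPM in Ptpn11E76K/+ and 19.97 CPM in Ptpn11+/+, Mxd4 at 43.4 CPM in Ptpn11E76K/+ and 147 CPM in Ptpn11+/+, and Mycl lies below 1 CPM in both.

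Among the activators, Myc had 1702 counts in the Ptpn11E76K/+ library and 462 in the Ptpn11+/+ library. These counts correspond to 97.9 CPM in Ptpn11E76K/+ (95% exact Poisson interval 93.3 to 103) and 19.97 CPM in Ptpn11+/+ (18.2 to 21.9), a ratio of 4.90 (4.42 to 5.44). Only 292 of the 13142 measured genes had a larger log2 ratio. Mycn, the family member best known from neural and early mesenchymal progenitors, went the other way, with 57 counts in Ptpn11E76K/+ and 205 in Ptpn11+/+. Its level was 3.28 CPM in Ptpn11E76K/+ and 8.86 CPM in Ptpn11+/+, 2.70-fold lower (2.01 to 3.69), and it was not called with a 99% interval. Mycl, the third activator, had 3 counts in Ptpn11E76K/+ and 5 in Ptpn11+/+ and was not measured, with 0.173 CPM in Ptpn11E76K/+ and 0.216 CPM in Ptpn11+/+. A difference in Mycl was not detectable at this depth, since the interval of its ratio ran from 0.124 to 4.10.

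The activators can be set beside each other per transcript length, as RPKM (counts per kilobase of the longest annotated transcript and per scaled library size). Myc had 41.9 RPKM in Ptpn11E76K/+ and 8.54 RPKM in Ptpn11+/+, and Mycn had 1.23 RPKM in Ptpn11E76K/+ and 3.31 RPKM in Ptpn11+/+. Myc made up 97.0% of the summed RPKM of the 3 activators in the Ptpn11E76K/+ library and 71.7% in the Ptpn11+/+ library, while Mycn made up 2.84% in Ptpn11E76K/+ and 27.8% in Ptpn11+/+. The summed level was 43.1 RPKM in Ptpn11E76K/+ and 11.9 RPKM in Ptpn11+/+, a ratio of 3.62. In bulk RNA, a different share of cells that express a gene and a different amount of RNA per cell cannot be told apart. This holds for Myc, for Mycn and for each antagonist below, and for the sums and quotients of these genes.

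Max, the shared partner, had 1435 counts in Ptpn11E76K/+ and 1489 in Ptpn11+/+. Its level was 82.5 CPM in Ptpn11E76K/+ and 64.4 CPM in Ptpn11+/+, a ratio of 1.28 (1.19 to 1.38) that was not called. The number of Myc counts per Max count was 1.19 in Ptpn11E76K/+ and 0.31 in Ptpn11+/+, so this quotient was 3.82 times as large (3.36 to 4.35) in the Ptpn11E76K/+ library, a value that does not depend on how the libraries are scaled. Per transcript length, the Myc level was 0.985 of the Max level in Ptpn11E76K/+ and 0.258 of it in Ptpn11+/+.

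Among the antagonists, Mxd4 had 755 counts in the Ptpn11E76K/+ library and 3390 in the Ptpn11+/+ library. Its level was 43.4 CPM in Ptpn11E76K/+ and 147 CPM in Ptpn11+/+, 3.38-fold lower (3.12 to 3.66), and of these 4 antagonist genes it had the most counts in both libraries. Mxd1 had 80 counts in Ptpn11E76K/+ and 264 in Ptpn11+/+, or 4.60 CPM in Ptpn11E76K/+ and 11.4 CPM in Ptpn11+/+, and was 2.48-fold lower (1.92 to 3.23). Its interval reached inside 2-fold, so it was not called, but it was called lower when the libraries were scaled by total counts or by totals that leave out the 100 most abundant genes. Mxi1 had 196 counts in Ptpn11E76K/+ and 485 in Ptpn11+/+, or 11.3 CPM in Ptpn11E76K/+ and 21.0 CPM in Ptpn11+/+, and was 1.86-fold lower (1.57 to 2.21) without being called. Mnt, known as a broadly expressed antagonist, had 584 counts in Ptpn11E76K/+ and 1131 in Ptpn11+/+, or 33.6 CPM in Ptpn11E76K/+ and 48.9 CPM in Ptpn11+/+, and was 1.46-fold lower (1.32 to 1.61) without being called. The interval of each of these 4 ratios lay wholly below 1, and the interval of Mxd4 did not meet that of Mnt or of Mxi1.

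**Figure D2:**
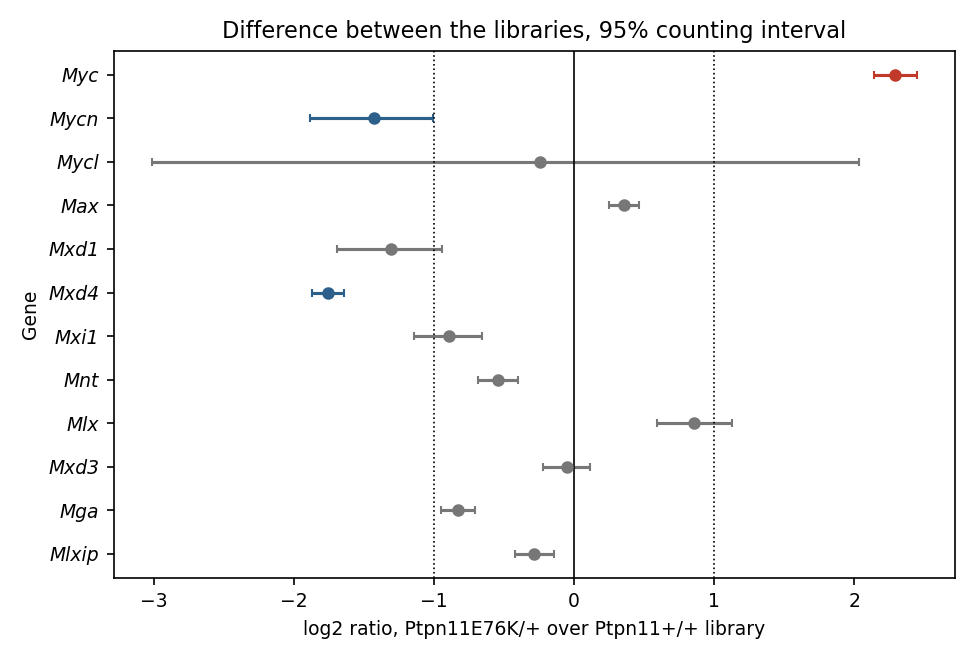
Log2 ratio of the Ptpn11E76K/+ over the Ptpn11+/+ library with 95% counting intervals for the 9 members and for Mxd3, Mga and Mlxip, with red for called higher, blue for called lower and grey for not called or not measured (Mycl). Dotted lines mark 2-fold in each direction. Myc stands at 2.29, Mxd4 at -1.75 and Mxd3 at -0.05.

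The order of the antagonist genes per transcript length was Mxd4, Mnt, Mxi1 and Mxd1 in both libraries. Mxd4 stood at 9.38 RPKM in Ptpn11E76K/+ and 31.7 RPKM in Ptpn11+/+, and Mnt at 7.32 RPKM in Ptpn11E76K/+ and 10.7 RPKM in Ptpn11+/+. Mxi1 had 2.24 RPKM in Ptpn11E76K/+ and 4.16 in Ptpn11+/+, and Mxd1 had 0.986 in Ptpn11E76K/+ and 2.45 in Ptpn11+/+. Mxd4 thus made up 47.1% of the antagonist RPKM in Ptpn11E76K/+ and 64.7% in Ptpn11+/+, and Mnt made up 36.7% in Ptpn11E76K/+ and 21.8% in Ptpn11+/+. With the median in place of the longest transcript length, Mnt came first in both libraries, with 60.9% in Ptpn11E76K/+ and 44.2% in Ptpn11+/+, so the order of Mxd4 and Mnt rests on the transcript assumed.

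Summed per transcript length, the 4 antagonists had 19.9 RPKM in the Ptpn11E76K/+ library and 48.9 RPKM in the Ptpn11+/+ library, 2.46-fold lower. The activators stood at 2.17 times the antagonists in Ptpn11E76K/+ and at 0.244 times in Ptpn11+/+. This quotient was 8.89 times as large in the Ptpn11E76K/+ library. With median transcript lengths the quotient was 0.791 in Ptpn11E76K/+ and 0.105 in Ptpn11+/+. Which branch was larger in the Ptpn11E76K/+ library thus rests on the transcript assumed. Taken gene by gene and free of scaling, the number of Myc counts per count of the antagonist was 16.5 times as large for Mxd4 (14.5 to 18.9), 12.1 times for Mxd1 (9.22 to 16.1), 9.11 times for Mxi1 (7.47 to 11.1) and 7.13 times for Mnt (6.17 to 8.26). Myc counts enter each of these 4 values, so they are not separate findings.

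**Figure D3:**
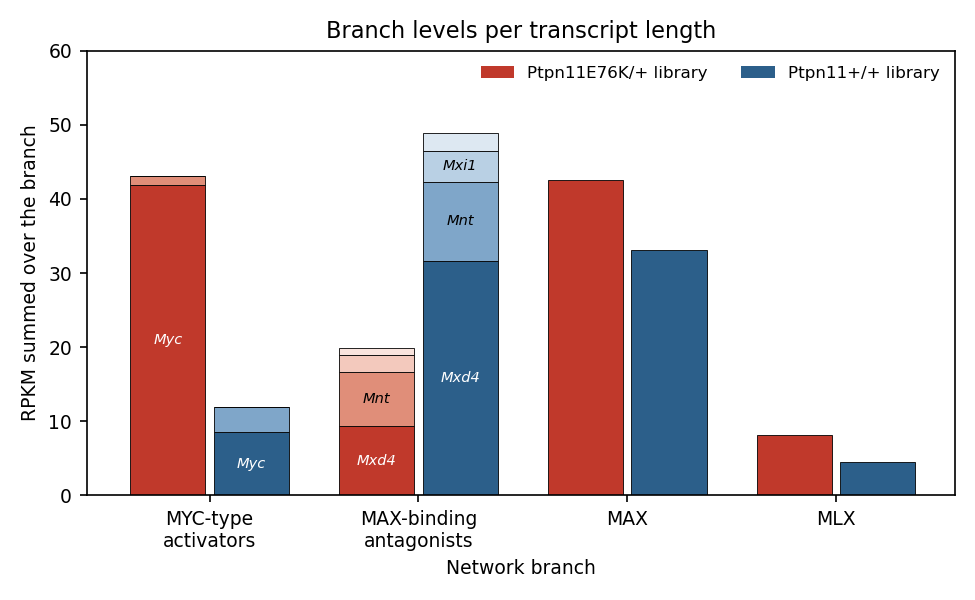
RPKM summed over each network branch in the Ptpn11E76K/+ library (red, left) and the Ptpn11+/+ library (blue, right), with the member genes stacked. The activators sum to 43.1 in Ptpn11E76K/+ and 11.9 in Ptpn11+/+, and the antagonists to 19.9 in Ptpn11E76K/+ and 48.9 in Ptpn11+/+.

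Mlx had 278 counts in Ptpn11E76K/+ and 204 in Ptpn11+/+, or 15.99 CPM in Ptpn11E76K/+ and 8.82 CPM in Ptpn11+/+, a ratio of 1.81 (1.51 to 2.18) that was not called. In GENCODE M21, 385 of its 1999 exonic bases overlap Psmc3ip on the other strand, which had 319 counts in Ptpn11E76K/+ and 227 in Ptpn11+/+. No source used here states whether the counting used strand, so reads of these genes cannot be told apart in the shared stretch. Mxd4 shares 514 of 8483 exonic bases with an antisense gene model, and the same limit holds there.

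Of the other genes that encode MAX or MLX partners, 3 of 4 were measured and none was called, against 15.3% of all measured genes. With 3 genes these shares cannot be told apart. Mxd3, the MXD gene known from dividing cells, had 507 counts in Ptpn11E76K/+ and 700 in Ptpn11+/+, or 29.2 CPM in Ptpn11E76K/+ and 30.3 CPM in Ptpn11+/+, 1.04-fold lower (0.924 to 1.17). It shares 105 of its 2369 exonic bases with Prelid1 on the other strand, which had 5388 counts in Ptpn11E76K/+ and 4720 in Ptpn11+/+, so its counts carry the same limit as those of Mlx. Mga, the gene of a large MAX partner found in a Polycomb repressor complex, had 801 counts in Ptpn11E76K/+ and 1888 in Ptpn11+/+ and was 1.77-fold lower (1.63 to 1.93), but its log2 ratio was -0.30 with the length and GC trends removed, against -0.82. The log2 ratio of Mxd3 was also -0.30 with the trends removed, against -0.05, which is outside its counting interval (-0.22 to 0.11). Per transcript length Mxd3 stood at 16.7 RPKM in Ptpn11E76K/+ and 17.4 RPKM in Ptpn11+/+. With Mxd3 and Mga counted as antagonists, an addition made after their values were seen, the antagonist sum was 40.0 RPKM in Ptpn11E76K/+ and 72.2 RPKM in Ptpn11+/+, 1.81-fold lower. The activators then stood at 1.08 times the antagonists in Ptpn11E76K/+ and at 0.165 times in Ptpn11+/+. Mlxip, the gene of MondoA, had 702 counts in Ptpn11E76K/+ and 1136 in Ptpn11+/+, 1.22-fold lower (1.11 to 1.34), and Mlxipl, the gene of ChREBP, had 0 counts in Ptpn11E76K/+, which at the floor of 3 counts allows up to 0.173 CPM, and 3 in Ptpn11+/+.

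Known targets of the glucose-sensing MLX branch were measured in 3 of 5 cases, with 1 called higher and 0 lower. That is 33.3% called higher against 6.99% of all measured genes, and with 3 genes each call is 33.3%. Txnip, which encodes an inhibitor of glucose uptake, had 1575 counts in Ptpn11E76K/+ and 1857 in Ptpn11+/+, a ratio of 1.13 (1.05 to 1.21). Its relative Arrdc4 had 287 counts in Ptpn11E76K/+ and 263 in Ptpn11+/+, which gives a ratio of 1.45 (1.22 to 1.72). Neither gene was called. Klf10, which is also known as an early response gene of TGF-beta, was called higher, with 1070 counts in Ptpn11E76K/+ and 329 in Ptpn11+/+ and a ratio of 4.33 (3.82 to 4.91). Pklr had 0 counts in both libraries, and Thrsp had 0 in Ptpn11E76K/+ and 1 in Ptpn11+/+.

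Genes known as MYC targets in ribosome biogenesis, listed with a few in protein synthesis and mitochondria, had the highest median of the lists in this pathway. All 40 listed genes were measured, and 30 were called higher, 0 lower and 10 not called, that is 75% called higher, against 6.99% of all measured genes. This list and those below were chosen with earlier results of these data known, so their shares are descriptions and not tests. The ribosome biogenesis list also holds the mitochondrial genes Hspd1, Hspe1, Phb and Tbrg4 and the translation initiation genes Eif4e, Eif4a1 and Eif2s1. Without these 7, set apart after their values were seen, 24 of 33 were called higher (72.7%) and 0 lower, with a median log2 ratio of 1.59. In the list of 40, every log2 ratio was above 0, from 0.26 to 2.29, and the median was 1.51, against 0.01 for all measured genes. Grwd1, a ribosome assembly chaperone gene, had 1453 counts in Ptpn11E76K/+ and 396 in Ptpn11+/+, a ratio of 4.88 (4.37 to 5.47). Rrp12, needed for export of ribosomal subunits, had 1304 counts in Ptpn11E76K/+ and 427 in Ptpn11+/+, a ratio of 4.06 (3.64 to 4.54). Mybbp1a, a nucleolar gene, had 8653 counts in Ptpn11E76K/+ and 2909 in Ptpn11+/+, a ratio of 3.96 (3.79 to 4.13). Nop56, which encodes a core protein of ribosomal RNA-modifying particles, had 6207 counts in Ptpn11E76K/+ and 2186 in Ptpn11+/+, a ratio of 3.78 (3.60 to 3.97). The genes that were not called included Ubtf, the gene of a transcription factor of RNA polymerase I, with a log2 ratio of 0.37, and Las1l with 0.26. Under the other scalings and without the length and GC trends, 26 to 31 of the 40 were called higher.

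The E-box occurred in the promoter windows of 8 of the 25 called genes of the ribosome biogenesis list with a window (32%). It also occurred in those of 5 of the 10 genes that were not called (50%). Over all measured genes with a window, 11.7% held it. Of the windows in which the motif lies wholly before the start, those of 3 genes called higher under every scaling tried and without the length and GC trends are shown as examples, with the E-box in capitals. They were picked among called genes, so they do not tie the motif to a higher level.
Nop2, chr6:125131796-125131855, plus strand: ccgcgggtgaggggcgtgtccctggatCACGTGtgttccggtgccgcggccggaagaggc
Hspd1, chr1:55088291-55088350, minus strand: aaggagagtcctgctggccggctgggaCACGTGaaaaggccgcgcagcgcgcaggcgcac
Eif4a1, chr11:69672580-69672639, minus strand: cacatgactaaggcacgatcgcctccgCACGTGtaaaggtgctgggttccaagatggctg
Nop2, an RNA methyltransferase gene, had 2630 counts in Ptpn11E76K/+ and 912 in Ptpn11+/+. Hspd1, a mitochondrial chaperone gene, had 10366 counts in Ptpn11E76K/+ and 4593 in Ptpn11+/+, and Eif4a1, which encodes a translation initiation helicase, had 20292 in Ptpn11E76K/+ and 11486 in Ptpn11+/+.

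**Figure D4:**
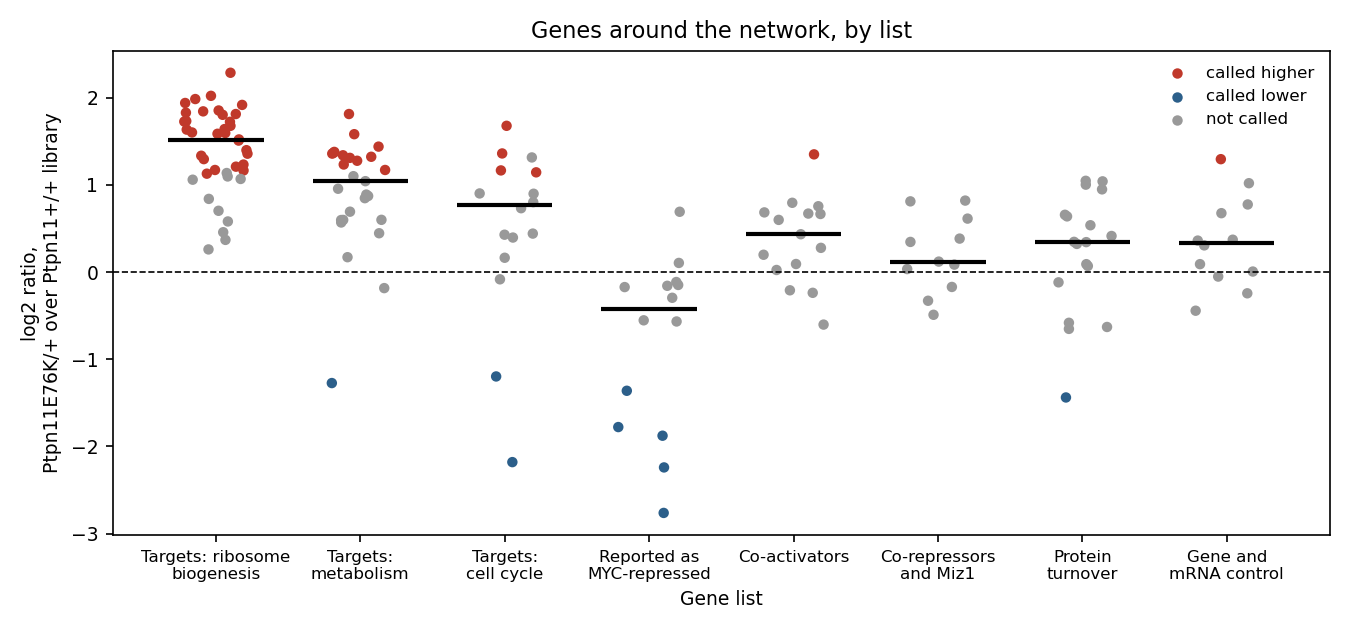
Log2 ratio of the Ptpn11E76K/+ over the Ptpn11+/+ library for each measured gene of 8 lists around the network, with red for called higher, blue for called lower and grey for not called. Black bars are list medians and the dashed line is the median of all measured genes. The ribosome biogenesis list, with its mitochondrial and translation initiation genes, has a median of 1.51 and the list of genes reported as MYC-repressed one of -0.42.

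The 27 genes listed as metabolic targets had a median log2 ratio of 1.04, with 12 called higher, 1 lower and 14 not called. That is 44.4% called higher and 3.70% lower, against 6.99% and 8.29% of all measured genes. The list also holds the RNA-binding splicing genes Hnrnpa1 and Ptbp1, the DNA repair gene Apex1 and the mitochondrial transcription factor gene Tfb2m, of which Hnrnpa1 and Apex1 were called higher. Without these 4, set apart after their values were seen, 10 of 23 were called higher (43.5%) and 1 lower, with a median of 1.04. Srm, the spermidine synthase gene, had 3452 counts in Ptpn11E76K/+ and 1307 in Ptpn11+/+, a ratio of 3.51 (3.30 to 3.75). The transferrin receptor gene Tfrc had a ratio of 2.99 (2.76 to 3.24), the glutamine transporter gene Slc1a5 one of 2.71 (2.54 to 2.90) and the splicing factor gene Hnrnpa1 one of 2.60 (2.54 to 2.66). Odc1, the ornithine decarboxylase gene and a classical MYC target, had 7974 counts in Ptpn11E76K/+ and 5896 in Ptpn11+/+ and a ratio of 1.80 (1.74 to 1.86) that was not called. Prps2, which encodes an enzyme of nucleotide precursor synthesis, was called lower, with 619 counts in Ptpn11E76K/+ and 1992 in Ptpn11+/+, 2.42-fold lower (2.21 to 2.65), but it lost that call once the length and GC trends were removed.

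Of 16 cell cycle targets, 4 were called higher, 2 lower and 10 not called, with a median of 0.77. That is 25% called higher and 12.5% lower, against 6.99% and 8.29% of all measured genes. The list also holds the DNA repair gene Ung and the telomerase gene Tert. Ung, which encodes a uracil-DNA glycosylase, had 395 counts in Ptpn11E76K/+ and 164 in Ptpn11+/+, a ratio of 3.20 (2.66 to 3.87), and the helicase gene Mcm5 had a ratio of 2.57 (2.44 to 2.70). Cks1b (2.24, 2.09 to 2.41) and Birc5 (2.21, 2.07 to 2.36) were called as well. Neither was called with total counts or without the 100 most abundant genes in the totals, which left only Ung and Mcm5. Cks1b was also not called once the length and GC trends were removed. Ccnd2, the cyclin D2 gene and a known MYC target, was 2.29-fold lower (2.23 to 2.36), with 5660 counts in Ptpn11E76K/+ and 17273 in Ptpn11+/+, but this call too was lost once the length and GC trends were removed. Tert, which encodes the telomerase catalytic subunit, had 16 counts in Ptpn11E76K/+ and 99 in Ptpn11+/+ and was 4.65-fold lower (2.73 to 8.45). Cdk4 had a ratio of 1.36 (1.31 to 1.41).

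Of 14 genes reported to be repressed by MYC, in part through its partner Miz1, 0 were called higher, 5 lower and 9 not called, that is 35.7% called lower against 8.29% of all measured genes, with a median of -0.42. Gas1, a growth arrest gene, was 6.79-fold lower (6.44 to 7.16) and the matrix gene Thbs1 3.43-fold lower (3.41 to 3.46). Cdkn2b, the gene of the cell cycle inhibitor p15, had 98 counts in Ptpn11E76K/+ and 481 in Ptpn11+/+, 3.69-fold lower (2.96 to 4.63). Cdkn1c, the gene of p57, had 15 counts in Ptpn11E76K/+ and 97 in Ptpn11+/+, 4.86-fold lower (2.81 to 9.02), and the clusterin gene Clu was 2.57-fold lower (2.37 to 2.80). Cdkn1a, the gene of p21 and the best known of the genes repressed through Miz1, had 3496 counts in Ptpn11E76K/+ and 5189 in Ptpn11+/+, 1.12-fold lower (1.07 to 1.16). Cebpa, an adipocyte factor gene, had a ratio of 1.62 (1.19 to 2.21) and was not called.

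Of 15 MYC co-activator genes, 1 was called higher and 0 lower (median 0.43), and that 6.67% is near the 6.99% of all measured genes called higher. Ruvbl2, an ATPase gene of the TIP60 complex, had 1857 counts in Ptpn11E76K/+ and 969 in Ptpn11+/+, a ratio of 2.55 (2.36 to 2.76), and its partner Ruvbl1 had one of 1.69 (1.56 to 1.82). Trrap, the scaffold gene of that complex, was 1.52-fold lower (1.44 to 1.60) without being called. With the length and GC trends removed its log2 ratio was -0.36, against -0.60. Of 11 genes of co-repressors used by MXD proteins and MNT and of Miz1, 0 were called in either direction (median 0.12), against 15.3% of all measured genes. Sin3a had 797 counts in Ptpn11E76K/+ and 1194 in Ptpn11+/+, 1.13-fold lower (1.03 to 1.23), Sap18 had a ratio of 1.75 (1.67 to 1.84), and the Miz1 gene Zbtb17 had one of 1.53 (1.36 to 1.72).

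Of 18 genes that act on the turnover of the MYC protein, 0 were called higher and 1 lower (median 0.34), that is 5.56% called lower against 8.29% of all measured genes. Huwe1, a ubiquitin ligase gene, had 5681 counts in Ptpn11E76K/+ and 20490 in Ptpn11+/+, 2.71-fold lower (2.63 to 2.79). With the length and GC trends removed its log2 ratio was -1.06, against -1.44, and it was still called lower. Fbxw7, the gene of the ligase that marks phosphorylated MYC for degradation, had 336 counts in Ptpn11E76K/+ and 420 in Ptpn11+/+, a log2 ratio of 0.09, and Gsk3b, a kinase gene of that route, was 1.497-fold lower (1.41 to 1.59) without being called. Aurka, whose kinase protects MYCN, had a ratio of 2.07 (1.94 to 2.20), and the phosphatase inhibitor gene Set one of 2.06 (1.99 to 2.12), and neither was called. Of 12 genes that act on the Myc gene or its mRNA, 1 was called higher and 0 lower (median 0.33), that is 8.33% called higher against 6.99% of all measured genes. That gene was Cnbp, which encodes a protein that binds the Myc promoter, with a ratio of 2.45 (2.37 to 2.53). Pvt1, the noncoding neighbour of Myc, had 216 counts in Ptpn11E76K/+ and 270 in Ptpn11+/+, a log2 ratio of 0.09, beside 2.29 for Myc.

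The 3 measured genes nearest to Myc in log2 CPM of both libraries were the microtubule gene Map1b (distance 0.11), the cytokine gene Tgfb1 (0.19) and Trim16 (0.19). Map1b stood at 97.5 CPM in Ptpn11E76K/+ and 21.5 CPM in Ptpn11+/+. This likeness rests on 2 libraries only.

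The library with more Myc also held more RNA of myeloid marker genes. Among 20 myeloid and pan-leukocyte markers, 12 were measured, with 9 called higher and 0 called lower in Ptpn11E76K/+, that is 75% called higher against 6.99% of all measured genes. All 9 reached the minimum of 20 counts through the Ptpn11E76K/+ library, so their direction was set by being measured. The 20 markers summed to 56.6 CPM in Ptpn11E76K/+ and 9.51 CPM in Ptpn11+/+, against 97.9 CPM in Ptpn11E76K/+ and 19.97 CPM in Ptpn11+/+ for Myc alone. Lyz2 was the highest of them in Ptpn11E76K/+, with 276 counts there and 11 in Ptpn11+/+. In the Ptpn11+/+ library 13 of the 20 were at 0, and S100a8, S100a9, Mpo and Elane were at 0 in both. The part of these cells in the difference of Myc, Mxd1 or the other genes was not tested.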

How the data were processed

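RNA was sequenced from sorted MSPC, 1 library per genotype. The authors deposited raw read counts, whole numbers per Ensembl gene that were not normalized. The submitters' processing notes list CASAVA, TopHat, edgeR and build mm9, with no version of any tool. No source used here gives the counter, the annotation release or the strand setting. Symbols came from a supplied gene name table and matched 34490 of 35275 identifiers. Transcript lengths, GC content and overlaps came from GENCODE M21. TMM and upper-quartile factors were computed in edgeR 4.0.16 (R 4.3.3), size factors in DESeq2 1.42.0, intervals in SciPy 1.17.1 and the smooth length and GC trends in mgcv 1.9.3. Log2 ratios use a prior count of 0.5 per library, and folds use counts without it. Counts of 0 were kept as 0, and the floor of 3 counts was used only to state the level that a count of 0 allows. Intervals of the quotients of Myc to another gene are exact conditional odds-ratio intervals, and intervals and floors cover counting error only. The calling rule was tested on simulated libraries that held counting error only, so that test does not cover spread between animals.

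The members and the 10 pathway and 5 marker lists were chosen with earlier results of these data known. Named genes are the members, the genes of each list with the interval bound most distant from a ratio of 1 (up to 4 per direction, 2 for short lists), all genes of the short partner and MLX target lists, and the 3 nearest to Myc. Odc1, Ubtf, Las1l, Nop2, Hspd1, Eif4a1, Clu, Cdk4, Cdkn1a, Fbxw7, Pvt1 and the genes set apart from the ribosome biogenesis and metabolism lists were named after their values were seen.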

Additional observations from a re-analysis of the deposited data

How the results depend on the processing

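No paired analysis was possible because there is 1 library per genotype, and no library could be left out. Total counts and totals without the 100 most abundant genes moved the median log2 ratio of all measured genes to -0.10 and -0.12, and under both the cell cycle targets called higher numbered 2. Under the trends over length and GC content the log2 ratio of Myc was 2.12, against 2.29. At 1.5-fold, 2063 genes were called higher and 2046 lower, with 6 members called, and at 4-fold 223 and 265, with 1 member called (Myc). The quotient of activators to antagonists was 7.53 times as large in Ptpn11E76K/+ with median transcript lengths and 6.54 times with Mxd3 and Mga added after seeing the data, against 8.89. With DESeq2 size factors and with upper-quartile factors, 0 of 50 values moved beyond their counting interval (a count by over 1.5 times, a list median by over 0.1). With total counts 12 of 50 moved, without the 100 most abundant genes in the totals 16, and with the trends removed 10. Myc left its log2 interval (2.14 to 2.44) with the trends removed. Mxd4, at -1.88, left its own (-1.87 to -1.64) without the 100 most abundant genes. The calls of Pes1, Phb, Slc19a1 and Apex1 were lost under total counts and without the length and GC trends. The median of the co-repressor list was -0.01 without the most abundant genes in the totals. Depth limits Mycl and Mlxipl, at 5 counts or fewer per library.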
